A study of Mus musculus with 84 samples.

Results

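Transcripts of 10 cytokine receptor genes were followed in single mouse vagal sensory neurons that project to the airways. They were taken as the rows of the deposited count table for Ifngr1, Ifngr2, Ifnar1, Ifnar2, Il10rb, Il1r1, Tnfrsf1a, Il4ra, Il13ra1 and Il31ra, which are 10 of its 50686 genes. Levels were read in each neuron with at least 5000000 total counts, which held for 72 of 84 neurons. All neurons came from C57BL/6 mice and had carried the lipophilic dye DiI, applied at 2%, back from the airways to the vagal ganglia. Each was picked singly and its mRNA was amplified before sequencing. The labels define 1 group, with no treatment, and give neither the age nor the animal behind a neuron. Neurons were therefore not used as replicates, no test was run, and shares describe these neurons with exact (Clopper-Pearson) 95% intervals that cover counting error only.

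These genes encode the chains by which a cell reads interferons, IL-1, TNF and the type 2 cytokines of allergic inflammation. Interferon and IL-10 family receptors pair a chain that binds the ligand tightly with an accessory chain, and both are needed to activate the JAK kinases that phosphorylate STAT proteins. IL-1 and TNF receptors act instead through adaptor proteins and NF-kB. The dorsal root ganglia and vagal ganglia of the mouse are known to hold neurons that respond to some of these cytokines directly, and receptors for IL-4, IL-13 and IL-31 are known for their part in itch.

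Levels are given as CPM, a gene's counts scaled to a total of 1000000 per neuron. A gene was called detected from 10 CPM upward, equal to 67.3 counts in the kept neuron with the lowest total and 207 in that with the highest. Total counts of the kept neurons ran from 6732279 to 20668832, with a median of about 12860292. The number of genes detected per neuron ran from 841 to 8870. A limit of 5000 genes parted 38 neurons called gene-rich here, with a median of 7894.5 genes, from 34 called gene-poor, with a median of 3076.5. After thinning every neuron to 6732279 counts the medians were 7872.5 and 3077. Neuron identifiers run in 3 blocks of 16, 11 and 45 kept neurons, which the labels do not call batches. All 10 pan-neuronal markers were detected in 50% of kept neurons or more, with a summed level of 301.7 to 29950 CPM. They were not all detected in every neuron. The lowest sum was in AM244, with 4 of the 10 markers and 34330 CPM of satellite glia markers. AM244 stayed in all shares of kept neurons. Satellite glia markers, 7 of 7 detected, summed to a median of 538 CPM in gene-rich and 1542 CPM in gene-poor neurons.

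Ifngr2, Ifnar1, Ifnar2 and Il10rb lie side by side on the plus strand of mouse chromosome 16 (GRCm38, GENCODE M21), within 192841 bases. Ifnar2 spans 91372783 to 91405589, Il10rb 91406164 to 91425834, Ifnar1 91485238 to 91507441 and Ifngr2 91547072 to 91565623. The other members are spread over the genome. Ifngr1 lies on chromosome 10 (19591949 to 19610229), Il1r1 on chromosome 1 (40225080 to 40317257), Tnfrsf1a on chromosome 6 (125349362 to 125362484), Il4ra on chromosome 7 (125552120 to 125579474) and Il13ra1 on chromosome X (36112110 to 36171259). Il31ra lies on the minus strand of chromosome 13 (112519898 to 112594360), and the rest are on the plus strand.

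RefSeq (GRCm38.p6) start-site sequences were matched for 9 of the 10 genes. The 250 bases before the start are shown for 4 of them, chosen because they stand for the most and the least often detected chains and for both chains of 1 receptor. Capitals mark the GC box letters GGGCGG, or CCGCCC on the other strand.
Ifngr2, chr16:91546809-91547058, plus strand: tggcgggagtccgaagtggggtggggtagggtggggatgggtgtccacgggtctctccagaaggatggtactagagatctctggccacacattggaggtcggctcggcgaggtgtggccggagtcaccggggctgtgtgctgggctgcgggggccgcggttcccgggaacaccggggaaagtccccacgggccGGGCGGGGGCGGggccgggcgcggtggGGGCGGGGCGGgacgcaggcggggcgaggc
Ifngr1, chr10:19591699-19591948, plus strand: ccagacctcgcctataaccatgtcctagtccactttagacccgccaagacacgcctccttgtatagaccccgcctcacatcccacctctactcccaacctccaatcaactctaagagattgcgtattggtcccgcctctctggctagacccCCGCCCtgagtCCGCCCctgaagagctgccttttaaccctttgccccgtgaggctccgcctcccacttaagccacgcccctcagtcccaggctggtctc
Ifnar2, chr16:91372533-91372782, plus strand: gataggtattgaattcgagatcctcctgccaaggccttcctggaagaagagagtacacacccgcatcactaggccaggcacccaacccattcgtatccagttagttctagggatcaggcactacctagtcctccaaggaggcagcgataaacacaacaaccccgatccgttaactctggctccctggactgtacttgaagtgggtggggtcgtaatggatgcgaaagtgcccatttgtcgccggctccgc
Il31ra, chr13:112580663-112580912, minus strand: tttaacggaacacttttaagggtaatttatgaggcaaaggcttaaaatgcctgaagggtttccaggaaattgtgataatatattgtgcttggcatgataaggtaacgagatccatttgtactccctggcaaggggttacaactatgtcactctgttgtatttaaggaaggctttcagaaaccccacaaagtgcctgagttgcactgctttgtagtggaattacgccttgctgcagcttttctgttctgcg
Ifngr2 had 25 CpG dinucleotides and 4 GC boxes (some overlap each other) in this window, and a GC content of 74%. Ifngr1 had 11 CpG and 2 GC boxes, Ifnar2 had 11 CpG and no GC box, and Il31ra had 4 CpG and no GC box. Over 32851 mouse promoters of the same length the median was 6 CpG, and 32.74% held a GC box. The TATA box letters TATAAA, searched on both strands like the GC box, were in no window of the 9 matched genes and in 12.37% of all promoters. Il10rb had no matched window. These matches describe letters only.

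Detection of the 10 genes ran from nearly all gene-rich neurons to a single cell. Ifngr2, the accessory chain of the interferon gamma receptor, was detected in 48 of 72 neurons (66.67%, interval 54.57 to 77.34%). Il10rb, the accessory chain shared by the IL-10, IL-22 and type III interferon receptors, followed with 46 neurons (63.89%). Tnfrsf1a, the main TNF receptor, was detected in 33 and Il4ra, the chain that binds IL-4, in 31. Ifngr1 and Ifnar1 were each detected in 20, Il13ra1 in 15, Il1r1 in 8, Ifnar2 in 4 and Il31ra in 1 (1.389%, 0.0352 to 7.50%). The counting intervals of each gene and the next in this order overlapped, and those of Ifngr2 and Il10rb did not reach those of Ifngr1 and the genes after it. All genes were read in the same 72 neurons, and the order was not tested. Among the 10 genes, 2 reached this level in 50% of neurons or more, against 34% of the 16068 genes detected in any. A neuron had a median of 3 of the 10 genes, with a range of 0 to 8, and 12 neurons, all gene-poor, had none.

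**Figure D1:**
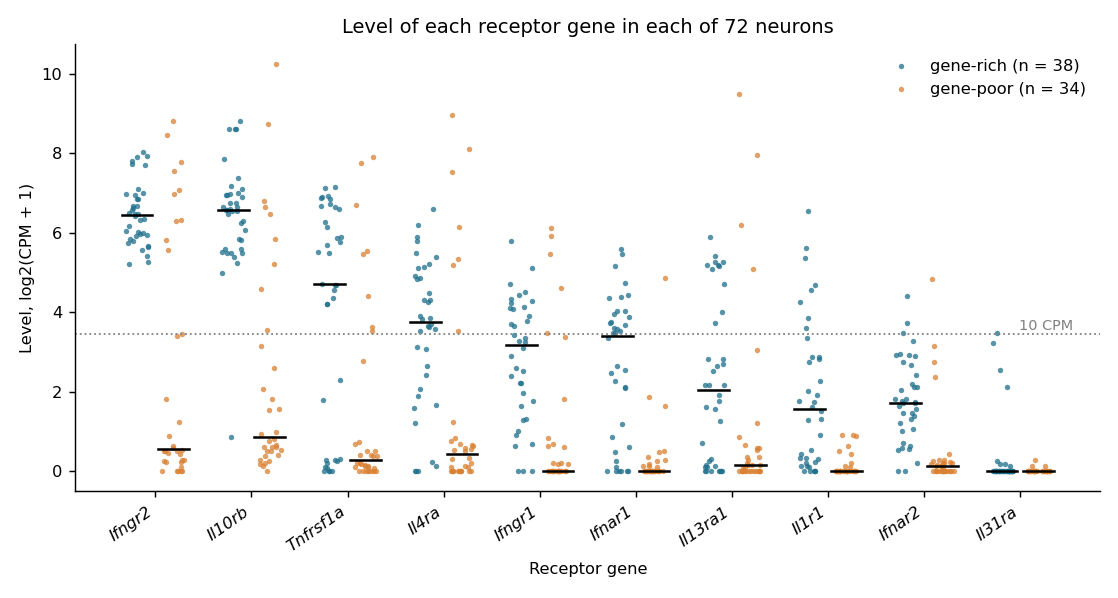
Level of each receptor gene, as log2(CPM + 1), in each of 38 gene-rich and 34 gene-poor neurons (1 point a neuron, black line the median, dotted line 10 CPM). Ifngr2 and Il10rb form a band well above 10 CPM in gene-rich neurons, while most gene-poor neurons lie near 0.

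Compared per kilobase of exon, the median over the neurons that had each gene was 24.8 CPM per kb for Il10rb, 23.2 for Ifngr2 and 22.2 for Tnfrsf1a. It was 9.57 for Il13ra1, 6.62 for Ifngr1, 4.87 for Il4ra, 4.87 for Ifnar2, 3.72 for Il1r1, 2.52 for Ifnar1 and 1.77 for Il31ra. Il10rb, Ifngr2 and Tnfrsf1a thus had the highest levels where present. Ifnar1 was detected in 20 neurons at a low level, with 14 of them between 10 and 20 CPM. Only neurons at 10 CPM or more entered, so the lowest possible value per kilobase was smaller for genes with more exon sequence. Means per kilobase over all 72 neurons were again highest for Il10rb (24.3), Ifngr2 (20.79) and Tnfrsf1a (13.19). Ifnar1, at 1.011, then lay above Ifnar2 (0.7714), Il1r1 (0.7251) and Il31ra (0.06741).

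The chains of the interferon gamma receptor were detected in unequal numbers of neurons, 48 for Ifngr2 and 20 for Ifngr1. In gene-rich neurons Ifngr2 ran from 36 CPM through a median of 85.8 to 259 CPM, and it was detected in 38 of 38. In gene-poor neurons it was detected in 10 of 34, with a median of 130 CPM in those 10 and 0.477 CPM over all 34. No neuron lay between 10 CPM and 36 CPM, while AM282 with 9.993 CPM and AM297 with 9.649 CPM lay just under the limit. Ifngr1, which binds interferon gamma, had a lowest level of 0, a median of 8.02 and a highest of 53.98 CPM in gene-rich neurons, and it reached 10 CPM in 15 of 38. Its highest level anywhere was 69.01 CPM, in the gene-poor neuron AM275. Both chains were detected together in 18 of 72 neurons (25%, 15.54 to 36.6%), Ifngr2 alone in 30 and Ifngr1 alone in 2. All 15 gene-rich neurons with Ifngr1 also had Ifngr2, which every gene-rich neuron had. Over 38 gene-rich neurons the Spearman correlation of the levels was 0.0942. At 1 count or more, both chains were seen in 48 of 72 neurons, so detection of Ifngr1 depends on the threshold.

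The type I interferon receptor was sparser. Ifnar1, its accessory chain, ran from 0 through a median of 9.59 to 47.5 CPM in gene-rich neurons, where it was detected in 19 of 38, and it was detected in 1 of 34 gene-poor neurons. Ifnar2, which binds interferon alpha and beta tightly, ran from 0 through 2.31 to 20.2 CPM in gene-rich neurons and reached 27.4 CPM in the gene-poor neuron AM078. It was detected in 4 neurons, and 9 others lay between 5 and 10 CPM. Both chains were detected in 2 neurons (2.778%, 0.338 to 9.68%). These were AM022, with 10.1 CPM of Ifnar2 and 13.7 CPM of Ifnar1, and AM059, with 12.2 and 35.1 CPM. At 1 count the order turned, with Ifnar2 in 55 neurons and Ifnar1 in 44. A call at 1 count can rest on a single read, below the 3 counts that a zero is allowed here. The annotated gene Gm21970, which shares exon bases with Ifnar2 and Il10rb in the annotation, had 0 counts in the kept neurons.

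Il10rb ran from 0.824 through a median of 94.4 to 447 CPM in gene-rich neurons, where it was detected in 37 of 38. The gene-poor neuron AM295 had 1207 CPM. Its ligand-binding partners were rare. Il10ra, the IL-10 binding chain, was detected in 3 neurons, 2 of them with Il10rb (AM017 and AM069). Ifnlr1, the type III interferon binding chain, was detected in 5 neurons, all gene-rich and all with Il10rb, at 12.2 to 33.1 CPM. Il22ra1 was detected in none of the 72, for which the exact interval reaches up to 4.994%. Il20ra and Il20rb, read as relatives of these chains and not as partners of Il10rb, were also detected in none. Across the interferon gamma, type I interferon and IL-10 receptors the accessory chain was therefore detected at 10 CPM in more neurons than the ligand-binding chain. For type I interferon this order depended on the threshold, as at 1 count, which a single read can meet, Ifnar2 was in 55 neurons and Ifnar1 in 44. With DESeq2 factors the shares at 10 CPM were 5.556% for Ifnar1 and 4.167% for Ifnar2. Ifnar1 also has more exon sequence, 5.94 kb against 3.329 kb.

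Within the chromosome 16 group, Il10rb and Ifngr2 were found together without the other pair in 21 neurons, and together with Ifnar1 in 17. All 4 genes were found in 2 neurons, Ifngr2 alone in 7, Il10rb alone in 4 and none in 18.

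**Figure D2:**
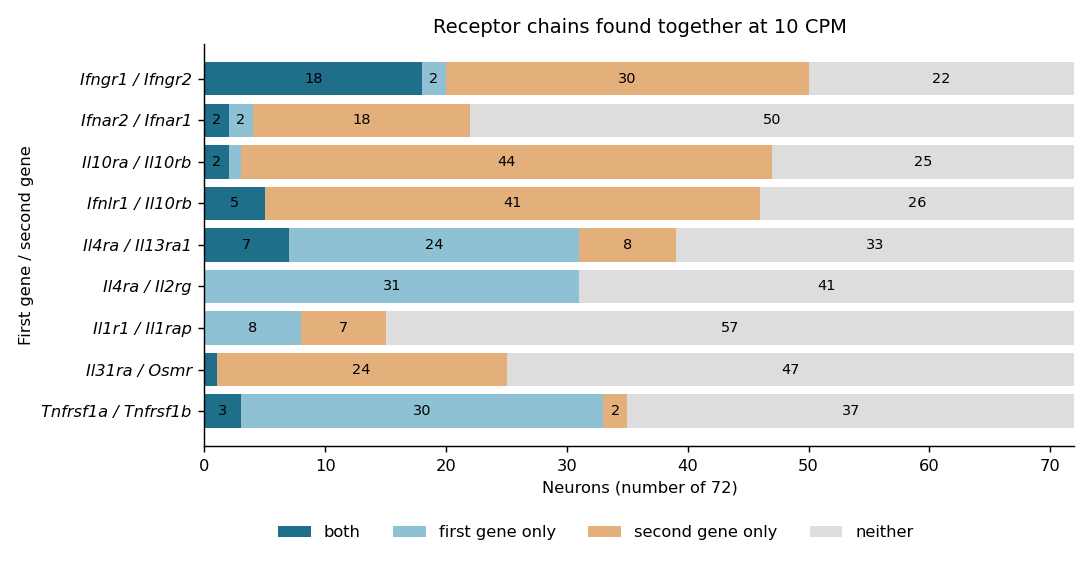
Number of the 72 neurons with both, 1 or neither of the named receptor genes at 10 CPM, for 9 pairs. The second gene alone is the widest coloured part for Ifngr2 (30), Ifnar1 (18) and Il10rb (44 and 41). Il1r1 and Il1rap, both rare, were in no neuron together at 10 CPM. Tnfrsf1a and Tnfrsf1b are separate receptors, not chains of 1.

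At 10 CPM, Il4ra and Il13ra1 were found apart in more neurons than together, with Il4ra alone in 24, Il13ra1 alone in 8 and both in 7. At 1 count or more this turned, with both in 44 of 72 neurons. Il4ra was detected at 10 CPM in 31 neurons and Il13ra1 in 15. These counts alone fix more neurons apart than together, so this does not show that the genes avoid each other. Of the gene-rich neurons with Il13ra1, 63.64% had Il4ra, against 63.16% of all gene-rich neurons. Il4ra ran from 0 through 12.6 to 95.8 CPM in gene-rich neurons, where 24 of 38 had it, and reached 500 CPM in the gene-poor neuron AM078, whose satellite glia markers summed to 4546 CPM. Il13ra1, which joins Il4ra to form the receptor for IL-4 and IL-13, ran from 0 through 3.13 to 58.2 CPM in gene-rich neurons, with 11 of 38, and reached 715 CPM in the gene-poor neuron AM005. AM005 also had the highest summed Schwann cell markers of all kept neurons, 21240 CPM, and 7867 CPM of satellite glia markers, whose part in its Il13ra1 level was not tested. The 7 neurons with both (9.722%, 3.999 to 19.01%) were all gene-rich. In those 7 neurons Il4ra lay between 13.6 CPM (AM070) and 41.01 CPM (AM235), and Il13ra1 between 14.99 CPM (AM281) and 41.8 CPM (AM249). Il2rg, which pairs with Il4ra in the type I IL-4 receptor of blood cells, did not exceed 0.779 CPM in any neuron. Crlf2, the TSLP receptor chain, was detected in 18 neurons and its partner Il7r in 1, AM235.

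Il31ra, which binds IL-31, was seen with any count in 11 neurons. AM070 had 10.05 CPM (194 counts) and AM235 had 8.35 CPM (99 counts). Its partner Osmr, shared with the oncostatin M receptor, was detected in 25 neurons and stood at 63.2 CPM in AM070 and 61.3 CPM in AM235. Both neurons also had Il4ra and Il13ra1. AM070 had Trpv1 at 94.1 CPM, Trpa1 at 34.4 CPM and Htr1f at 31.2 CPM, while AM235 had 0.0844 CPM of Trpv1 and of Trpa1. In AM070 Cysltr2, Hrh1 and Lpar3 were at 0.0518, 0.104 and 0.725 CPM, and Sst, Mrgprd, Mrgpra3 and F2rl1 at 0. In AM235 Htr1f, Hrh1, Mrgpra3 and F2rl1 were at 0, Sst, Mrgprd and Lpar3 at no more than 0.169 CPM, and Cysltr2 at 8.44 CPM. Nppb, the peptide that marks itch neurons of dorsal root ganglia in the mouse, was at 0 in both and detected in 1 of 72 neurons. Of 12 itch neuron genes, 10 were detected in at least 1 neuron and Mrgpra3 and F2rl1 in none. The highest Osmr level, 28010 CPM in AM287, stood far above the second, 1059 CPM in AM244. These neurons had the highest summed satellite glia markers, 56790 CPM in AM287 and 34330 CPM in AM244, with pan-neuronal markers at 3089 and 301.7 CPM and 841 genes detected in AM287. The part of glial RNA in these Osmr levels was not tested.

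Il1r1, the signalling receptor for IL-1, was detected in 8 neurons, all gene-rich, at up to 92.2 CPM in AM272. The next were 48.4 CPM in AM249 and 39.8 CPM in AM219. Il1rap, the partner chain it needs to signal, was detected in 7 neurons and in none of those 8 (0%, exact interval up to 4.994%). With both genes this rare, few joint neurons would occur even for unrelated genes, so this does not show that they avoid each other. At 1 count both were seen in 22 neurons. Il1r2, a decoy receptor, was detected in 3 neurons.

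Tnfrsf1a ran from 0 through 25.1 to 141 CPM in gene-rich neurons (25 of 38 detected) and reached 239.4 CPM in the gene-poor neuron AM223. Tnfrsf1b, the second TNF receptor, was detected in 5 neurons, all gene-rich, and with Tnfrsf1a in 3.

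Gene-rich neurons had more of the receptors, as they had more of most genes. The share was 40 percentage points or more higher in gene-rich neurons for 5 genes. These were Il10rb (70.9 points), Ifngr2 (70.59), Ifnar1 (47.06), Il4ra (42.57) and Tnfrsf1a (42.26). Over 11351 genes detected in at least 5 neurons, 53.8% passed the same limit with a median of 43.19 points, against a median of 42.41 points for the 8 members among them. The members thus followed the background. The split depends on scaling. Trimmed-mean (TMM) factors lowered all levels by 0.91 (log2) in the median gene-rich neuron and raised them by 0.66 in the median gene-poor neuron. Size factors of DESeq2 lowered and raised them by 1.16 and 1.29. With either, Ifngr2 and Il10rb alone kept 40 points. Ifnar2 turned to -3.25 points with both, and Ifngr1 to -1.86 with DESeq2. Thinned to equal depth, Ifngr2 was detected in 38 gene-rich and 10 gene-poor neurons, as before.

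**Figure D3:**
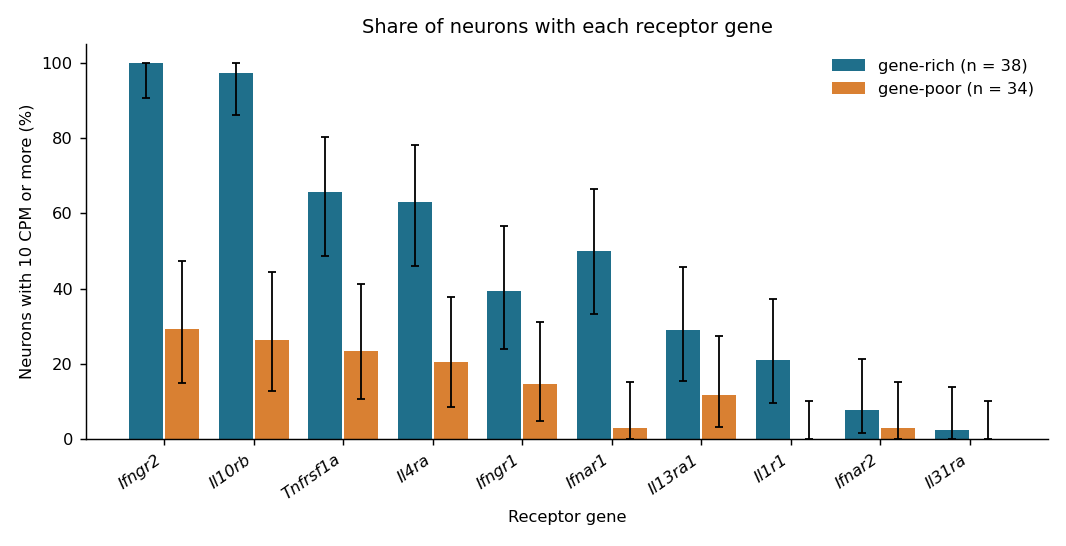
Share of neurons (%) with each receptor gene at 10 CPM in gene-rich (n = 38) and gene-poor (n = 34) neurons, with exact 95% binomial intervals as bars. Ifngr2 (38 of 38 against 10 of 34) and Il10rb (37 against 9) stand apart most. Il1r1 and Il31ra were not detected in gene-poor neurons.

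Gene-rich neurons were then parted by Prdm12, a transcription factor of the neural crest lineage that forms the jugular ganglion. Ifngr2 was higher in the 6 Prdm12 neurons than in most others. Its level was 259 CPM in AM296, 238 in AM303, 224.5 in AM013, 206 in AM237 and 115 in AM011, with AM228 between AM296 and AM303. The 32 other neurons ran from 36 through a median of 74.4 to 211 CPM. The groups overlapped, with 4 of the 6 above every other neuron and 5 of the 32 at or above the lowest of the 6. The ratio of the medians (231 and 74.4 CPM) was 3.11. A median at least 2-fold higher in Prdm12 neurons was found for 11.5% of 8392 genes, computed on CPM + 1. Median genes detected were 8107 and 7851.5. The ratio was 2.75 without identifier block 3, 2.86 without block 1 and 2.99 with TMM factors. Without block 3 it rested on 2 Prdm12 neurons, AM013 and AM011, both of block 1, as block 2 had 0. The gene-poor neuron with Prdm12, AM304, had 351 CPM, the second highest Ifngr2 level of all. The highest, 447 CPM, was in AM023, a gene-poor neuron without Prdm12 whose satellite glia markers summed to 8442 CPM. This comparison of levels was chosen after the values were seen.

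Ifngr1 also had a higher median in Prdm12 neurons, 16.3 CPM against 4.89 CPM, with ranges of 8.64 to 24.98 and 0 to 53.98 CPM that overlapped widely. It was detected in 4 of 6 Prdm12 neurons and 11 of 32 others, a difference of 32.29 points. Ifnar1 was detected in 5 of 6 against 14 of 32, 39.58 points and so just inside the limit of 40. Il13ra1 was detected in 0 of 6 against 11 of 32. Il10rb, of the same chromosome 16 group as Ifngr2, had medians of 71.2 and 96.7 CPM. No member passed 40 points by Prdm12, where 4.37% of genes were higher and 1.92% lower by that much.

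**Figure D4:**
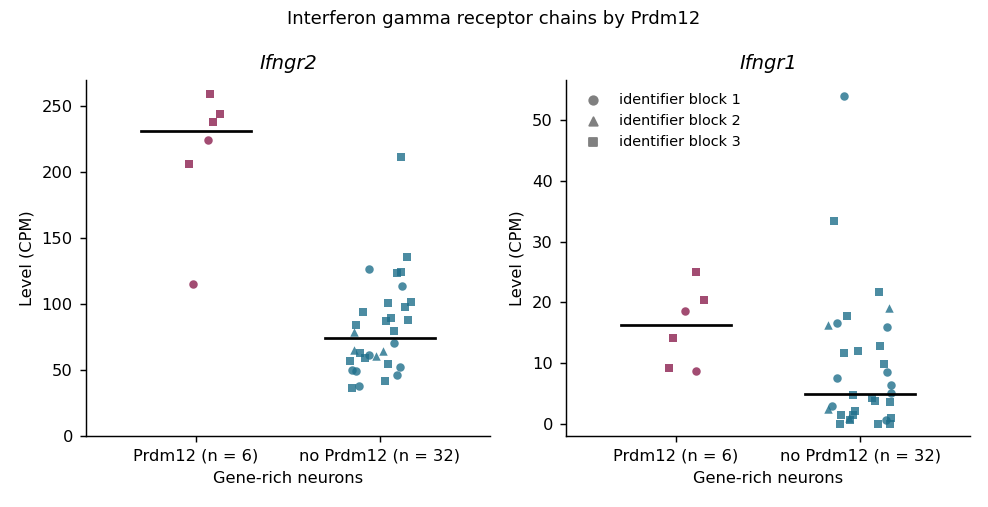
Level (CPM) of Ifngr2 and Ifngr1 in gene-rich neurons with Prdm12 at 10 CPM (n = 6) and without (n = 32), with symbols for identifier block and a line at the median. Ifngr2 medians were 231 and 74.4 CPM, Ifngr1 medians 16.3 and 4.89 CPM.

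By the capsaicin receptor Trpv1, Tnfrsf1a was detected in 6 of 14 gene-rich neurons with it and 19 of 24 without (-36.31 points), with median levels of 2.08 and 55.7 CPM. In identifier block 3 the counts were 3 of 10 and 11 of 13, in block 1 they were 2 of 3 and 6 of 8, and without block 3 the difference was 2.27 points. It therefore rested on block 3. No member passed 40 points by Trpv1 (0.934% of genes higher, 0.907% lower), P2rx2, an ATP-gated channel subunit (1.01%, 0.564%), Tac1, the substance P precursor (0.317%, 0.0881%), Piezo2, a mechanosensitive channel (0.802%, 0.414%), or Calca, the CGRP precursor (0.264%, 0.546%).

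Between members, the largest Spearman correlation over 38 gene-rich neurons was -0.546, for Tnfrsf1a and Il10rb. It was -0.712 in the 23 neurons of block 3 and 0.582 in the 11 of block 1, so it did not hold across blocks. The genes most like each member, of 10821 compared over the same neurons and with shared depth and gene number, were led by Nacad (0.803), Zswim8 (0.773) and Stk11ip (0.737) for Ifnar1. Ifngr2 was most like Atp6v0b (0.693), Ppp2r1a (0.679) and Mark2 (0.663). Il10rb was most like Tusc3 (0.67), Nae1 (0.628) and Igip (0.601). Tnfrsf1a was most like Ly6h (0.649), S100a16 (0.641) and D930028M14Rik (0.639), and Il4ra like Pfn4 (0.644), Cpsf7 (0.619) and Rsf1 (0.61). Il1r1 was most like Ankrd28 (0.66), Odc1 (0.653) and Smad1 (0.64), Il13ra1 like Creb1 (0.659), Hivep2 (0.641) and Ercc5 (0.62), and Ifngr1 like mt-Nd6 (0.603) and Abhd6 (0.597).

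Genes that act behind the receptors ranged from absent to widely detected. Of 12 JAK kinases and STATs, 11 were detected in at least 1 neuron. Jak1, which serves interferon and IL-4 receptors, was detected in 64 of 72, Stat3 in 58, Jak2 in 34 and Stat6, the IL-4 and IL-13 transducer, in 33. Tyk2, the type I interferon kinase, was detected in 2 and Jak3, the partner of Il2rg, in none. The 6 genes of the IL-1 path were complete in none at 10 CPM, and in 13 neurons at 1 count. They include Il1r1 and Il1rap, which no neuron had together at 10 CPM. The 4 genes of the IL-4 and IL-13 path were complete in 5 neurons and the 4 of the TNF path in 1. At 1 count these 2 paths were complete in 37 and 14 neurons. Of 14 adaptors all were detected in some neuron, led by Irak1 (46) and Map3k7 (42), with Irak4 in 2. Of 12 inhibitors 11 were detected, led by Socs2 (59), Ptpn11 (55) and Nfkbia (49).

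The ligands were rarely detected. Of 14, 6 reached 10 CPM in some neuron, led by Il18 (17 neurons) and Il4 (6), and Ifng, Ifnb1, Il13, Il31, Il10 and Il22 had no count in any kept neuron. Of 18 interferon-stimulated genes 17 were detected, with B2m in 64 neurons and Ifit1 in 32. A gene-rich neuron had a median of 7 of the 18 (range 2 to 12) with Ifnar1 but not Ifnar2, and 5 (2 to 9) without Ifnar1. The ranges overlapped, and median gene number also differed, at 8216 and 7275. The 2 neurons with both type I chains had 6 and 8 of the 18. By the interferon gamma receptor the median was 7 both with both chains (2 to 9) and with Ifngr2 alone (2 to 12).

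Leukocytes express most of these receptors, so their markers were read beside them. The summed level of 11 leukocyte markers ran from 0 through a median of 0.242 to 562 CPM, with Cd3e and Cd79a detected in none. In the 60 neurons with no leukocyte marker at 10 CPM, Ifngr2 was detected in 40, Il10rb in 37, Tnfrsf1a in 28, Il4ra in 25, Ifngr1 in 15, Ifnar1 in 15, Il13ra1 in 9, Il1r1 in 5, Ifnar2 in 3 and Il31ra in 1. Over all 72 kept neurons the counts, in the same order, were 48, 46, 33, 31, 20, 20, 15, 8, 4 and 1. Every gene but Il31ra was thus also detected in neurons with a leukocyte marker. Gene-rich neurons parted at the median of summed satellite glia markers gave Ifngr2 in 19 of 19 in each part, Tnfrsf1a in 12 and 13, and Il13ra1 in 3 and 8 of 19 in the lower and higher part. The part of glial RNA in the Il13ra1 counts was not tested, nor was that of leukocyte RNA in any of these counts.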

How the data were processed

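The deposited table holds raw read counts per Ensembl gene, made by the authors with featureCounts per the submitters' processing notes (version not given) from 76-base NextSeq 500 reads per the labels' protocols. Not given in the sources used here are the aligner, build, annotation and strand setting. Molecular identifiers are not mentioned, so copies made by amplification were counted repeatedly. The labels' protocols call sequencing single stranded, and overlapping genes cannot be parted.

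Symbols came from GENCODE M21 (50376 of 50686 identifiers matched). Counts were scaled to CPM over each neuron's total, and 12 neurons under 5000000 counts were left out. Spearman correlations used log2(CPM + 1). TMM factors came from edgeR 4.0.16 and size factors from DESeq2 1.42.0 in R 4.3.3, with no test by either. Other steps used Python 3.11.15 with pandas 2.3.3 and scipy 1.17.1, seed 1, and were tested on simulated data. Genes named are the 10 members, their partner chains, the 3 most often detected of each other list (any of lists of 14 or fewer) and the 3 genes most like each member detected in at least 5 gene-rich neurons. Items withheld from this text that these rules take are not reported here. The members and lists were chosen with earlier results of these data known.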

Additional observations from a re-analysis of the deposited data

Results flagged for a closer look

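The 12 neurons under 5000000 counts stayed out of every comparison, and 5 receptor genes reached 10 CPM among them. Ifnar2 did so in 3 neurons, with up to 607 CPM (350 counts), above the 27.4 CPM that was its highest in the kept neurons. Il10rb did so in 2 neurons (up to 18.95 CPM), and Ifngr1 (113 counts), Il1r1 (69.7 CPM) and Il4ra (12.95 CPM) in 1 each. There are no control samples, and these levels rest on totals of at most 3892206 counts.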

How the results depend on the processing

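The share over all genes was counted at the main setting only, so the counts of members at other settings have no background. Counting any read instead of 10 CPM gave 9 members in at least 50% of neurons (main 2), and 50 CPM gave 1. Both interferon gamma chains were in 66.67% of neurons at 1 count, 2.778% at 50 CPM and 12.5% with TMM or DESeq2 factors (main 25%). Both type I interferon chains were in 56.94% at 1 count and 0% at 50 CPM and with either set of factors (main 2.778%). Il4ra and Il13ra1 were together in 61.11% at 1 count and 0% at 50 CPM (main 9.722%), and Il1r1 and Il1rap in 30.56% at 1 count and 5.556% at 5 CPM (main 0). Il31ra was in 15.28% at 1 count, and in 0% at 50 CPM, after thinning, with either set of factors and without identifier block 2. Members 40 points higher in gene-rich neurons numbered 3 at 1 count, 2 at 50 CPM, 2 with TMM, 2 with DESeq2 and 3 without block 1 (main 5). Members apart by Prdm12 (main 0) numbered 2 at 5 CPM and after thinning, 1 at 50 CPM, without each block and at a limit of 4000 genes, and 3 at 30 points. Those apart by another marker (main 0) numbered 3 at 50 CPM, 1 without block 1, 1 without block 2, 3 without block 3 and 1 at 30 points. At 1 count the other markers gave no value. Tnfrsf1a by Trpv1 turned to 2.27 points without block 3. The cause of these changes was not tested, apart from the threshold itself. The settings for Ifngr2 by Prdm12 and Tnfrsf1a by Trpv1 were chosen after seeing the data, and the Ifngr2 ratio ran from 2.68 (DESeq2 factors) to 4.38 (all kept neurons). No paired analysis was possible because the labels give 1 group. A zero count in the shallowest neuron allows up to 0.446 CPM (3 counts), the amplification of single-cell mRNA was not measured, and shares of 6 or fewer neurons have wide intervals.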

Other observations

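The neuron with the highest Ifngr2 level, AM023, also had the highest level of 7 of the 18 interferon-stimulated genes, and this was noticed after the values were seen. They were Gbp2 at 1098 CPM, Ifit1 at 582 CPM, Irf1 at 307 CPM, Ifitm3 at 146 CPM, Isg15 at 136 CPM, Mx2 at 128 CPM and B2m at 2026 CPM. The 18 genes summed to 4447 CPM there, against a median of 354 CPM and a second highest of 2318 CPM. AM023 was gene-poor, with 3525 genes, had 8 of the 18 genes at 10 CPM and had no more than 0.145 CPM of Ifnar1 or Ifnar2. Irf9 (555 CPM), Stat5a (451.5 CPM), Nfkb1 (777.1 CPM) and Nfkbia (1104 CPM) were also highest in AM023. The share of all genes with their highest level there was not counted, so the 7 of 18 has no background. Its pan-neuronal markers summed to 6552 CPM, against a median of 18020 CPM. Satellite glia markers summed to 8442 CPM and Schwann cell markers to 4909 CPM there, against medians of 1339 and 719 CPM. Leukocyte markers summed to 3.63 CPM. The part of glial RNA in these levels was not tested.

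Il4, the type 2 cytokine, had at least 1 count in 49 of 72 neurons and reached 10 CPM in 6, all gene-rich, with a highest level of 34.3 CPM in AM234. Il13 had no count in any kept neuron.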
